A study of Mus musculus with 6 samples.

Results

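Protein kinase C (PKC) and protein kinase D (PKD) genes were examined in LβT2 cells, a mouse cell line with features of the pituitary gonadotrope, the cell that makes luteinizing hormone and follicle-stimulating hormone. The genes are *Prkca*, *Prkcb*, *Prkcd*, *Prkce*, *Prkch*, *Prkci*, *Prkcq*, *Prkcz* and *Prkd1*, taken by gene symbol as 9 of the 47069 genes in the count table. All 6 libraries came from cells at passage 14 that were given 2 nM gonadotropin-releasing hormone (GnRH) for 40 min, and no library of untreated cells was analysed here. In 3 libraries the trypsinized cells were lysed at once (fresh), and in 3 they were first stored cold, at 4°C, in the stabilizing buffer RNA-Best for 4 days or longer. The comparison therefore asks whether the PKC and PKD transcripts read the same after storage as in fresh cells, not what GnRH does to them. The labels do not say whether replicates are separate cultures, so p-values measure the spread between these libraries, which may be technical.

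The GnRH receptor couples through Gq proteins to phospholipase C, which splits a membrane lipid into inositol trisphosphate and diacylglycerol. Diacylglycerol, with calcium for some isoforms, brings PKC to the membrane and switches it on, and PKC is a main route from the receptor to the MAP kinases and the immediate-early genes. Conventional isoforms (PKCα and PKCβ here) need both calcium and diacylglycerol, a calcium-independent class (PKCδ, PKCε, PKCη and PKCθ) needs diacylglycerol alone, and atypical isoforms (PKCι and PKCζ) respond to neither. PKD is a separate kinase family that binds diacylglycerol and is itself phosphorylated and activated by PKC.

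The fresh libraries held between 14477304 and 47438746 counts and the RNA-Best libraries between 4909418 and 11999363, so every fresh library was deeper, and depth and storage cannot be told apart by group. With every library thinned to the smallest, the 4 members called in the comparison were called again. Of the gonadotrope markers, *Cga*, *Lhb*, *Gnrhr* and *Nr5a1* were detected and *Fshb* had 0 counts, and the summed level of the 5 markers was 2379 to 2404 CPM (the usual depth-scaled count) in fresh and 1971 to 2014 CPM in RNA-Best libraries. Most of that sum was *Cga*, at 1813 ± 19.5 and 1426 ± 20.2 CPM (SD, n = 3 each), whereas *Gnrhr*, the GnRH receptor upstream of PKC, went the other way, at 119 ± 8.73 and 164 ± 7.72 CPM (SD, n = 3 each), 0.43 in log2 (edgeR adjusted p = 5.66e-11), and *Lhb* was not called (0.03 in log2, edgeR adjusted p = 0.775). *Nr5a1*, a gonadotrope transcription factor, was lower, at 436 ± 2.34 CPM fresh and 379 ± 7.56 CPM stored (SD, n = 3 each), -0.21 in log2 (edgeR adjusted p = 5.33e-08). Of the 7 markers of other pituitary cell types, *Prl* and *Pou1f1* were at 0, and their sum was 0.839 to 1.17 CPM in fresh and 1.43 to 2.39 CPM in RNA-Best, most of it *Tshb*. The 5 markers of blood and immune cells summed to 4.22 to 5.21 CPM in fresh and 2.65 to 4.10 CPM in RNA-Best, nearly all of it *Itgam*, with *Ptprc* at 0. The 5 fibroblast and endothelial markers summed to 190 to 192 CPM in fresh and 195 to 208 CPM in RNA-Best, nearly all of it *Cdh5*, which was higher by 0.12 in log2, and *Pecam1*, which was lower at -0.15 (edgeR adjusted p = 0.00228 and 0.015), while *Col1a1*, *Col1a2* and *Pdgfra* stayed at or under 0.109 CPM as group means. The part of these differences in the results on the kinases was not tested.

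LβT2 cells held transcripts of conventional, calcium-independent and atypical PKC in quantity, but almost none of *Prkd1*. To compare genes with each other, CPM were divided by the exonic length of the gene in kilobases. On that scale *Prkcb*, the calcium-dependent PKCβ, was highest in every library, at 29.8 to 37.0 CPM per kb. *Prkcd*, which encodes PKCδ, followed at 20.5 to 22.7 CPM per kb, and the level of *Prkcb* was 1.42 to 1.78 times that of *Prkcd* within a library. *Prkcz* stood at 8.12 to 9.75, *Prkca* at 6.90 to 8.95, *Prkci* at 5.38 to 7.45 and *Prkce* at 4.00 to 6.08 CPM per kb. These 4 genes overlapped with their neighbours in the order. *Prkcz* was above *Prkca* in every library but RNA-Best replicate 2, with a ratio of 0.908 to 1.37. *Prkcq*, best known from T cells, was at 0.531 to 0.718 CPM per kb and *Prkch*, the epithelial PKCη, at 0.0908 to 0.138 CPM per kb. *Prkd1* had 0 counts in 4 libraries and 1 count in each of the others (fresh replicate 3 and RNA-Best replicate 3). A count of 0 still allows 0.0632 CPM at the greatest depth and 0.611 CPM at the lowest, taking 3 counts as the limit, for counting error only.

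**Figure D1:**
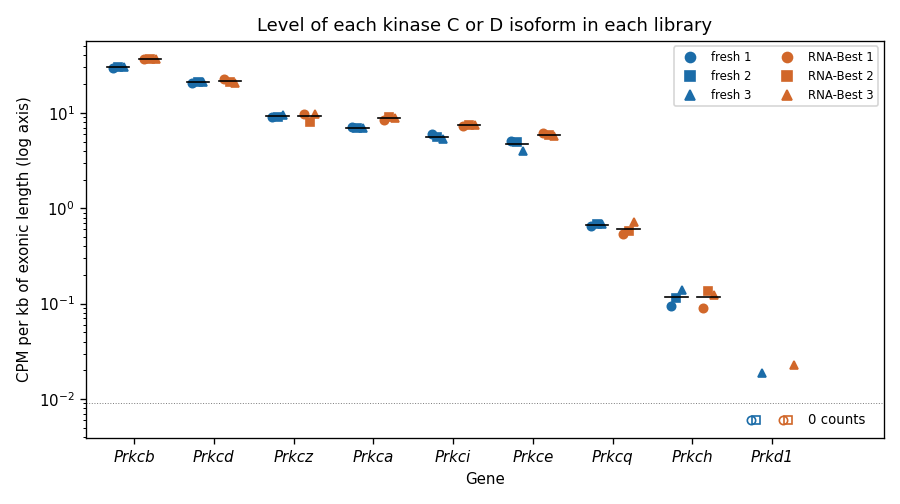
Level of the 9 kinase genes in each library as CPM per kb of exonic length on a log axis, with blue for fresh, orange for RNA-Best, a marker shape for each replicate and a black line at each group mean. *Prkcb* and *Prkcd* stand above the rest, *Prkcq* and *Prkch* lie far below, and *Prkd1* is drawn at the bottom with open markers in the 4 libraries where it had 0 counts.

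Other genes of the wider family were detected. *Prkd2* and *Prkd3*, which encode the other protein kinases D, were at 5.32 to 6.32 and 2.47 to 3.24 CPM per kb. The PKC-related kinase *Pkn2* lay between *Prkca* and *Prkci*, at 5.61 to 7.65 CPM per kb, and the ranges of the 3 genes overlapped. Of the members, *Prkca* shares 30 exonic bases with *Apoh*, which had at most 4 counts in a library. *Prkce* shares 472 bases with AC154542.1 on the same strand, which the count table does not hold.

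Promoter letters are shown for the highest isoform and 2 others that differed between the groups, beside those of the isoform that was barely detected. Each run covers the 250 bases before a RefSeq start site on GRCm38.p6, read 5′ to 3′ on the strand of the gene, with matches to the GC box (GGGCGG or CCGCCC) in capitals. The windows lie at chr7:122288875-122289124 on the plus strand for *Prkcb*, chr11:108343889-108344138 on the minus strand for *Prkca*, chr3:30995521-30995770 on the plus strand for *Prkci* and chr12:50649250-50649499 on the minus strand for *Prkd1*. By the GENCODE gene bounds the *Prkcb* window lies inside the gene, which starts at 122288751. Those of *Prkca* and *Prkci* cross the gene start, and that of *Prkd1* lies before it.
Prkcb: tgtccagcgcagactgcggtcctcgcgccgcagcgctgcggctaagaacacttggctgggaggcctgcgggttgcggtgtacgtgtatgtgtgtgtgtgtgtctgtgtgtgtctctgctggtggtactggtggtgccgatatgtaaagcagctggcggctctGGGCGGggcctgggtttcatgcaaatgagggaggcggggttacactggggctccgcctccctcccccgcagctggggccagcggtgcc
Prkca: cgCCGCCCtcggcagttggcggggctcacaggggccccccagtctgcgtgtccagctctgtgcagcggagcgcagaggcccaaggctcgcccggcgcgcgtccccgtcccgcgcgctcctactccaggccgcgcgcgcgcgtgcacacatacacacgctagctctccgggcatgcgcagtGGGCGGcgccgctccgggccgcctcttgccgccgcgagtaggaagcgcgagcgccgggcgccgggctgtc
Prkci: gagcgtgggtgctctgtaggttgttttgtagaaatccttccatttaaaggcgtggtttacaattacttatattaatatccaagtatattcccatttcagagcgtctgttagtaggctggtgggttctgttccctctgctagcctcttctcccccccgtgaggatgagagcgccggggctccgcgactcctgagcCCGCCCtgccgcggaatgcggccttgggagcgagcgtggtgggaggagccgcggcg
Prkd1: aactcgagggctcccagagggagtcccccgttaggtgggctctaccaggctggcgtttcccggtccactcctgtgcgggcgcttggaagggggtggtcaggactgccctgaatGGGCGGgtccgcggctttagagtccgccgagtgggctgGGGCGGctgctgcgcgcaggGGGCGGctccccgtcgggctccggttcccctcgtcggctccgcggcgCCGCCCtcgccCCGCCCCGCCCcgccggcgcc

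All 4 windows held a GC box, with 1 match in *Prkcb* and in *Prkci*, 2 in *Prkca* and 6 in *Prkd1*, some of them overlapping. A GC box was present in 32.7% of the 32851 promoter windows of the table. The windows held 17 CpG dinucleotides in *Prkcb*, 39 in *Prkca*, 17 in *Prkci* and 30 in *Prkd1*, where the median of all windows was 6. The window of the gene with almost no counts thus had the most GC boxes of the 4 and more CpG dinucleotides than that of the most abundant isoform. The windows of *Prkd1* and *Prkcb* do not lie alike against the GENCODE gene start, which limits this comparison. None of the 4 held a TATA box (TATAAA), a TPA response element (TGACTCA), a cyclic AMP response element (TGACGTCA) or an Egr site (GCGGGGGCG) on either strand, letters that occur in 12.4%, 4.46%, 1.55% and 2.57% of all windows. The table matched 7 of the 9 genes, with 10 windows, and had none for *Prkce* and *Prkch*. *Prkcd* had 2 windows, of which the upstream window held 4 GC boxes and 1 TATA box and the other held none of these motifs. *Prkcz* had 3 windows, 2 of them with 2 GC boxes each and 1 with none, and the window of *Prkcq* held 1 GC box. *Prkcd* and *Prkcz* thus have more than 1 annotated start, and counts per gene do not separate their transcripts. For *Prkcz* an internal start is known to give PKMζ, a form without the regulatory part of the kinase, and its share was not measured here.

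Storage in RNA-Best went with modestly higher levels of 4 isoforms, and the rest did not pass the test. *Prkca*, *Prkcb*, *Prkce* and *Prkci* were higher in RNA-Best, by 1.21 to 1.29-fold, and no member was lower. Calls are adjusted p under 0.05 from edgeR's quasi-likelihood test with Benjamini-Hochberg adjustment over all 14736 genes that passed the filter on low counts. Of the members 8 passed that filter, all but *Prkd1*. The same test called 50.8% of all tested genes, 26% higher and 24.8% lower in RNA-Best. Among the 4252 tested genes with 5 to 10 kb of exonic sequence, where all 8 tested members lie, 45.2% were higher and 10.1% lower, so 4 of 8 is near the share of genes of this length. In 4 members the groups did not overlap in CPM, which was the case for 57.5% of all tested genes.

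**Figure D2:**
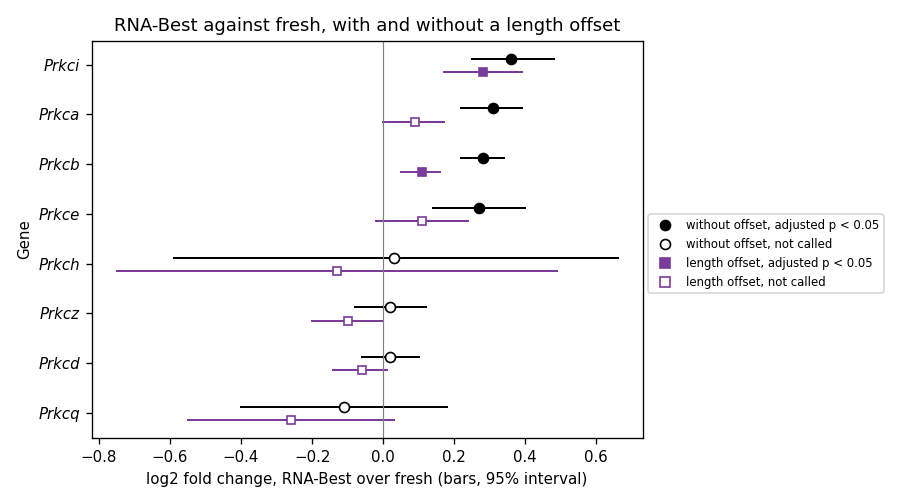
Log2 fold change of RNA-Best over fresh for the 8 tested isoforms with 95% intervals, in black as fitted and in purple with an offset for gene length, filled where the adjusted p from edgeR is under 0.05. Without the offset *Prkci*, *Prkca*, *Prkcb* and *Prkce* are called, and with it *Prkci* and *Prkcb*.

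Both conventional isoforms rose. *Prkcb* lies on chromosome 7 from 122288751 to 122634402 of GRCm38 on the plus strand, with 7.65 kb of exonic sequence in 8 annotated transcripts. It had 228, 231 and 233 CPM in the fresh libraries and 282, 283 and 281 CPM in the RNA-Best libraries. Each group was tight and the groups were far apart, with means of 230 ± 2.23 and 282 ± 1.02 CPM (SD, n = 3 each). On the log2 scale the difference was 0.28 with a standard error of 0.03 (edgeR adjusted p = 4.71e-10). *Prkca*, on chromosome 11 from 107933387 to 108343928 on the minus strand, encodes PKCα, the widely expressed calcium-dependent isoform. It had 64.5, 62.1 and 62.1 CPM in fresh and 75.8, 80.5 and 80.1 CPM in RNA-Best libraries. Again no RNA-Best value reached down to the fresh values, and on the log2 scale they differed by 0.31 with a standard error of 0.04 (edgeR adjusted p = 1.73e-07). The ratio of *Prkcb* to *Prkca* per kb was 4.31 ± 0.134 fresh and 4.21 ± 0.144 stored (SD, n = 3 each) and overlapped between the groups.

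Of the 4 calcium-independent isoforms 1 rose. *Prkce*, on chromosome 17 from 86167785 to 86657919 on the plus strand, encodes PKCε. It had 37.0, 36.0 and 29.0 CPM in fresh and 44.1, 42.6 and 41.8 CPM in RNA-Best libraries. Fresh replicate 3 was the lowest, and all fresh values were under all RNA-Best values. The log2 difference was 0.27 with a standard error of 0.06 (edgeR adjusted p = 6.76e-04). *Prkcd*, on chromosome 14 from 30595354 to 30626210 on the minus strand, had 114, 118 and 117 CPM in fresh and 126, 117 and 114 CPM in RNA-Best libraries. The groups overlapped, and the log2 fold change of 0.02 had a 95% interval from -0.06 to 0.10 (adjusted p = 0.675 from edgeR). This interval lies below that of *Prkcb* and *Prkca*, and the ratio of *Prkcb* to *Prkcd* per kb was 1.45, 1.42 and 1.44 in fresh and 1.63, 1.75 and 1.78 in RNA-Best libraries. All RNA-Best ratios were above all fresh ratios (two-sided p = 0.1 by exact permutation, which is the least that 3 against 3 libraries can reach; 6 ratios were computed and no p is adjusted for them).

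*Prkcq*, on chromosome 2 from 11172108 to 11301222 on the plus strand, had 4.59, 4.87 and 4.84 CPM in fresh and 3.76, 4.07 and 5.08 CPM in RNA-Best libraries. Its 20 to 61 counts per RNA-Best library gave a wide interval, from -0.40 to 0.18 around a log2 difference of -0.11 (edgeR adjusted p = 0.549). Its value ranged from -0.307 without RNA-Best replicate 3 to -0.00207 without RNA-Best replicate 1, and none was called. *Prkch*, on chromosome 12 from 73584796 to 73778185 on the plus strand, rested on 29, 41 and 15 counts in fresh and 6, 5 and 11 counts in RNA-Best libraries. Its levels were 0.715, 0.864 and 1.04 CPM in fresh and 0.684, 1.02 and 0.917 CPM in RNA-Best, and the interval of its log2 fold change from -0.59 to 0.66 leaves a change of the size seen for *Prkcb* undetectable at this depth.

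Of the atypical isoforms 1 rose. *Prkci*, on chromosome 3 from 30995747 to 31052959 on the plus strand, encodes PKCι, a partner of the Par polarity proteins. It had 33.2, 30.8 and 29.8 CPM in fresh and 40.6, 41.1 and 41.3 CPM in RNA-Best libraries. The groups were clearly apart, and its log2 fold change of 0.36 (standard error 0.06, adjusted p = 1.35e-06 from edgeR) was the highest of the tested members. *Prkcz*, on chromosome 4 from 155260129 to 155361361 on the minus strand, had 57.1, 57.7 and 59.9 CPM in fresh and 61.6, 51.3 and 61.0 CPM in RNA-Best libraries. RNA-Best replicate 2 was lowest and replicate 1 highest of all 6, so the groups overlapped, with a log2 fold change of 0.02 and an interval from -0.08 to 0.12 (adjusted p = 0.796 from edgeR). Within a library the ratio of *Prkcz* to *Prkci* per kb was 1.51, 1.65 and 1.76 in fresh and 1.33, 1.1 and 1.3 in RNA-Best, all RNA-Best values being lower (two-sided p = 0.1 by exact permutation, again the least possible).

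The deposited counts of *Prkci* and *Prkcz* included parts of reads in 3 libraries each, while those of the other 7 members were whole numbers, so some reads of these genes had been divided. For *Prkcz* a second source is annotated, the processed pseudogene *Prkcz2* on chromosome 7, which shares 951 stretches of 50 bases with *Prkcz* transcripts, or 55.7% of its own and 14.8% of those of *Prkcz*. Among the 13 genes and 78 pairs compared, the members and 4 related genes, no other pair shared such a stretch. The longest run that both hold is 302 bases. The 60 bases around its end are shown, with the only base that differs in capitals; the *Prkcz* letters are coding and join 2 exons within chr4:155268215-155269043, and the *Prkcz2* letters lie at chr7:27883058-27883117, both read on the minus strand of GRCm38.
Prkcz: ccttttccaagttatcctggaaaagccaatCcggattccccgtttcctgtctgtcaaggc
Prkcz2: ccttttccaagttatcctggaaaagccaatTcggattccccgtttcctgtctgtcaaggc

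A read from within the shared run cannot be placed by its letters. *Prkcz2* was credited with 6.21, 6.66 and 6.29 CPM in fresh and 8.70, 5.70 and 7.67 CPM in RNA-Best libraries, against 51.3 to 61.6 CPM for *Prkcz*. The log2 fold change of *Prkcz2* was 0.23 (adjusted p = 0.103 from edgeR), and with the length offset it was called higher, at 0.33 (edgeR adjusted p = 0.0258). With the counts of both genes added, an alternative chosen after the data were seen, the log2 fold change of *Prkcz* was 0.04 (adjusted p = 0.522 from edgeR), so its call did not change.

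The summed level of the 9 genes rose from between 78.1 and 78.7 CPM per kb in fresh to between 89.2 and 91.8 CPM per kb in RNA-Best libraries, and its make-up shifted by a few points. *Prkcb* made up 38.4 ± 0.444% of the fresh sum and 40.8 ± 0.634% of the RNA-Best sum (SD, n = 3 each). The share of *Prkcd* was 26.7 ± 0.493% and 23.8 ± 0.895% in the same order (SD, n = 3 each), and that of *Prkcz* 11.8 ± 0.325% and 10.2 ± 0.907% (SD, n = 3 each). *Prkci* held 7.19 ± 0.402% and 8.19 ± 0.185% (SD, n = 3 each), and *Prkca* 8.92 ± 0.208% and 9.71 ± 0.457% (SD, n = 3 each). In these 5 genes and in *Prkcq*, whose share was 0.858 ± 0.0271% fresh and 0.674 ± 0.112% stored (SD, n = 3 each), the groups did not overlap. In CPM the groups did not overlap in 57.5% of all tested genes, and no such figure was computed for shares. *Prkcd*, *Prkcz* and *Prkcq* overlapped between the groups in CPM and were not called, so their lower shares go with the larger sum. The shares of *Prkce*, *Prkch* and *Prkd1* overlapped. Conventional isoforms together held 47 to 47.7% in fresh and 49.4 to 51.5% in RNA-Best libraries, calcium-independent isoforms 33.2 to 34.3% and 30.2 to 32%, and atypical isoforms 18.6 to 19.2% and 17.4 to 19.0%. Shares of a sum are tied to each other and depend on the gene length used, and with the longest transcript of each gene in its place *Prkcb* held 47.7% in fresh and 50.8% in RNA-Best and *Prkca* 5.15% and 5.61%. By that length *Prkci* held 4.58% and 5.22%, *Prkce* 3.75% and 4.1%, and *Prkcz* 9.82% and 8.5%.

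**Figure D3:**
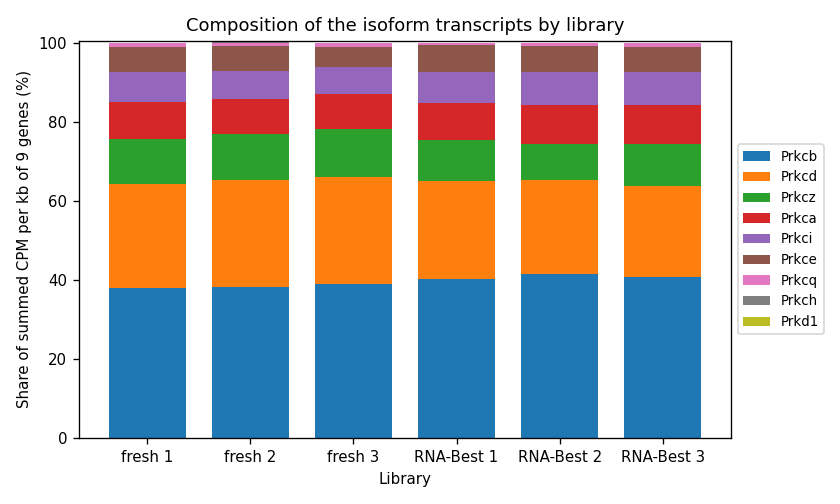
Share of each gene in the summed CPM per kb of the 9 genes, stacked to 100% for each of the 6 libraries. *Prkcb* and *Prkcd* make up most of every bar, the *Prkcb* share is larger and the *Prkcd* share smaller in the 3 RNA-Best libraries, and *Prkch* and *Prkd1* are too small to see.

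Gene length moved with the comparison across the whole table. The median log2 fold change was -0.22 in the 1571 tested genes of up to 1 kb of exonic sequence, 0.13 in those of 5 to 10 kb and 0.33 in the 1244 over 10 kb. The tested members are long, from 5.54 kb in *Prkcd* to 8.99 kb in *Prkca*. *Prkci*, *Prkca*, *Prkcb* and *Prkce* lay close to or above the upper quartile of their length class, which was 0.27, *Prkcd*, *Prkch* and *Prkcz* between its lower quartile of -0.02 and its median, and *Prkcq* under the lower quartile. With an offset for length in each library, edgeR called 40.8% of all tested genes and 2 of the members. *Prkci* kept a log2 difference of 0.28 (edgeR adjusted p = 1.24e-04) and *Prkcb* 0.11 (adjusted p = 0.00340 from edgeR). *Prkca* and *Prkce* were no longer called, at 0.09 and 0.11 (adjusted p = 0.0937 and 0.158 from edgeR). With the replicate number as a block beside the offset *Prkce* was called again, at 0.16, and *Prkcz* was called lower, at -0.13 (adjusted p = 0.0279 and 0.0432 from edgeR). With the offset alone the values of *Prkcd*, *Prkch* and *Prkcz* turned negative, at -0.06, -0.13 and -0.10, and that of *Prkcq* was -0.26, none of them called (adjusted p = 0.169, 0.791, 0.0923 and 0.147 from edgeR). Length, storage and depth were not varied separately in the experiment itself, and the part of length in the calls was not tested beyond this offset. With the offset the median of the 8 tested members was 0.01, against 0.15 without it and -0.04 and -0.01 for all tested genes with and without it.

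**Figure D4:**
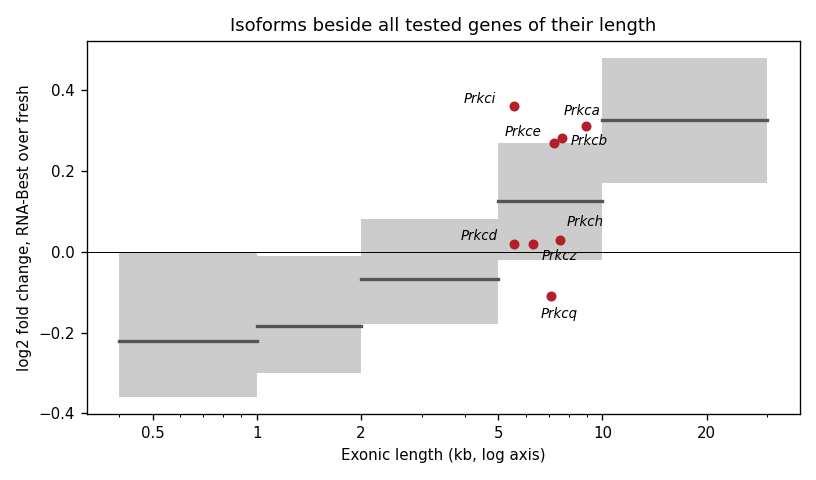
Log2 fold change of RNA-Best over fresh against exonic length in kb on a log axis, with the 8 tested isoforms in red and, for all tested genes in 5 length classes (the outer 2 are open-ended), the median as a line and the quartiles as a grey band. All 8 isoforms lie in the class from 5 to 10 kb, whose median is 0.13, with 4 isoforms near or above the band's upper edge and *Prkcq* below its lower edge.

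The profile of *Prkcb*, the member with the highest level per kb, was shared by many genes. By the root mean square difference of log2(CPM + 1), centred on the mean of each gene over the 6 libraries, the nearest of the 14736 tested genes were *Dixdc1*, *Bcl9l* and *Mllt10*, at 0.00532, 0.00972 and 0.0104. *Dixdc1* for example had 30.7, 30.9 and 31.4 CPM in fresh and 38.0, 38.3 and 37.8 CPM in RNA-Best libraries. In all 598 genes lay within 0.05 on this log2 scale, and the 3 nearest had 5.91 to 9.97 kb of exonic sequence. The distances of these 3 genes are smaller than the counting error of their levels, so their rank among near genes is not resolved.

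The remaining PKC-related kinases showed the same mixture. Of the 6 genes of this list, *Prkd2*, *Prkd3*, *Pkn2* and *Pkn3* among them, all were tested, 3 were higher in RNA-Best and none was lower. Over all tested genes 26% were higher and 24.8% lower. *Pkn2*, a relative of PKC, differed by 0.32 in log2 (edgeR adjusted p = 4.13e-08), and *Prkd3* by 0.26 (adjusted p = 4.73e-04 from edgeR). *Prkd2* averaged 29.1 ± 0.0717 CPM fresh and 30 ± 2.71 CPM stored (SD, n = 3 each), differing by 0.05 in log2 (edgeR adjusted p = 0.476), and *Pkn3* was at -0.12 (edgeR adjusted p = 0.359). With the length offset neither *Pkn2* nor *Prkd3* was called, at -0.01 and -0.02 (edgeR adjusted p = 0.842 and 0.819).

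Diacylglycerol kinases turn the activator of PKC into phosphatidic acid and so end its signal. Of 10 genes 9 were tested, 7 were higher and 1 was lower in RNA-Best, with a median log2 fold change of 0.28, and *Dgkb* had 0 counts in all libraries. The tested genes of this list had a median exonic length of 7.16 kb. Of all tested genes 26% were higher, and of those with 5 to 10 kb 45.2%. *Dgkh* averaged 7.49 ± 0.385 CPM fresh and 15.9 ± 1.74 CPM stored (SD, n = 3 each), a log2 difference of 1.06 (edgeR adjusted p = 8.16e-12), and *Dgkg* followed at 0.71 (adjusted p = 8.07e-07 from edgeR). *Dgkz* was lower, at 90.8 ± 2.54 and 82.3 ± 2.46 CPM (SD, n = 3 each), -0.16 in log2 (edgeR adjusted p = 0.0012), and *Dgka* did not pass at 0.01 (adjusted p = 0.942 from edgeR). With the length offset 3 genes were higher, among them *Dgkh* at 0.66 and *Dgkg* at 0.48 in log2, and *Dgkz* was lower at -0.28, and the others were not called.

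Genes for the maturation and turnover of PKC went both ways, as did all tested genes (26% higher and 24.8% lower in RNA-Best). The list holds the kinase *Pdpk1* and the mTORC2 genes that phosphorylate new PKC, its chaperones, the phosphatases *Phlpp1* and *Phlpp2* and the ubiquitin ligase *Rbck1*, among others. All 12 were tested, 5 were higher and 2 lower in RNA-Best, with a median log2 fold change of 0.07. *Rictor*, the defining subunit of mTORC2, rose by 0.79 on the log2 scale (adjusted p = 1.35e-14 from edgeR) and *Phlpp2* by 0.39 (adjusted p = 3.77e-05 from edgeR). The kinase chaperone *Cdc37* averaged 260 ± 7.87 CPM fresh and 213 ± 6.84 CPM stored (SD, n = 3 each), -0.29 in log2 (edgeR adjusted p = 1.64e-09). With the length offset 3 genes were higher and 2 lower, and *Rictor* was at 0.38, *Phlpp2* at 0.19 and *Cdc37* at -0.49 in log2, all still called.

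Scaffolds and substrates held calls in both directions, as did all tested genes, of which 26% were higher and 24.8% lower in RNA-Best. Of 14 scaffold genes 12 were tested, with 3 higher, 3 lower and a median log2 fold change of 0.03. *Akap13*, an anchor of PKD, and *Akap5* had log2 fold changes of 0.56 and 0.40 (adjusted p = 1.88e-14 and 4.88e-04 from edgeR). *Rack1*, the receptor for activated PKC that also sits on the ribosome, fell from 861 ± 20.2 to 672 ± 15.5 CPM (SD, n = 3 each), or -0.37 in log2, and *Pard6a*, a partner of atypical PKC, had -0.34 (adjusted p = 2.24e-13 and 2.47e-04 from edgeR). With the length offset 2 scaffold genes were higher and 4 lower, and *Akap13* was at 0.10 and *Akap5* at 0.26 in log2, both still called. Of 16 substrate genes 14 were tested, with 3 higher, 5 lower and a median log2 fold change near 0. *Kidins220*, a substrate of PKD, had the highest value at 0.40 (adjusted p = 8.97e-13 from edgeR), and *Rin1*, a Ras effector, came next at 0.23 and was not called (adjusted p = 0.555 from edgeR). *Ppp1r14b*, a phosphatase inhibitor, and *Pebp1*, a Raf inhibitor, had -0.40 and -0.35 (adjusted p = 2.58e-09 and 1.42e-11 from edgeR). The offset left *Kidins220* called, at 0.19 in log2.

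Other proteins with a C1 domain bind diacylglycerol as PKC does. Of 12 genes 9 were tested, 6 were higher and none was lower, with a median log2 fold change of 0.31. *Unc13c* and *Unc13a*, priming factors of vesicle release, had 0.53 and 0.46 (adjusted p = 0.00242 and 6.17e-11 from edgeR). The lowest values were those of *Rasgrp4* and *Chn1*, at -0.50 and 0.07, and neither was called (adjusted p = 0.0772 and 0.534 from edgeR). The tested genes of this list had a median exonic length of 8.80 kb, and with the length offset 2 were higher and 3 lower. Without the offset 26% of all tested genes were higher, 45.2% of those with 5 to 10 kb and 76.8% of those over 10 kb. *Unc13c* then lost its call, at 0.32 in log2, *Unc13a* kept it at 0.14, and *Rasgrp4* was called lower at -0.62 (edgeR adjusted p = 0.073, 0.00883 and 0.0291). The median length of the substrate list was 5.60 kb, with 1 gene higher and 6 lower after the offset.

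**Figure D5:**
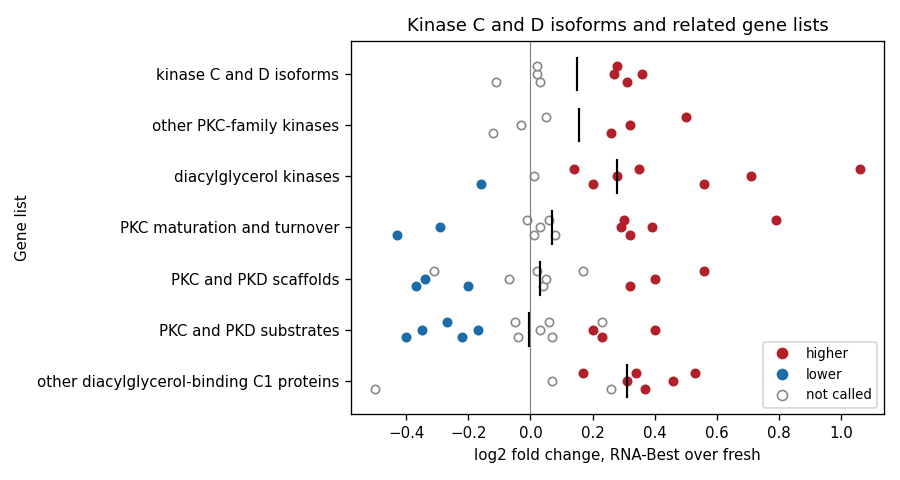
Log2 fold change of RNA-Best over fresh for every tested gene of the kinase C and D isoforms and of 6 related lists, red where higher, blue where lower and open where not called by edgeR, with a black line at the median of each list. The medians run from near 0 in the substrates to 0.31 in the other C1 proteins, and the called isoforms lie between 0.27 and 0.36.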

How the data were processed

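Bulk RNA-seq libraries of LβT2 cells, 3 fresh and 3 RNA-Best, were compared. The authors aligned single reads to GRCm38 (mm10 in the submitters' processing notes) with STAR 2.5.1b and the GENCODE M8 annotation and counted them with featureCounts 1.5.0-p1. Settings for strand and shared reads are not given in the sources used here. The authors deposited 1 estimated count per gene and library, unscaled. Values over 0.001 away from whole made up 9.36% to 16.3% of a library, and all were rounded for the count models.

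Tests used edgeR 4.0.16 in R 4.3.3 (TMM scaling, filterByExpr with a minimum count of 10, glmQLFTest, Benjamini-Hochberg adjustment), and limma 3.58.1 and DESeq2 1.42.0 gave alternatives. Standard errors are the absolute log2 fold change divided by the root of the F statistic. Levels are CPM of column totals, and per kb values used exonic lengths from GENCODE M21 on the same assembly, which matched 46574 genes. Length and GC offsets were loess fits with a span of 0.5 per library. The fits were tested on simulated data. Within a group the chi-square of 2 libraries was 1.08 to 1.95 per gene, where sampling noise alone gives about 1, so no pair was merged as a duplicate deposit; this does not show that the libraries are independent cultures.

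The members and lists were chosen with earlier results of these data known. Named are all members, the 2 highest and 2 lowest log2 fold changes of each list, the 3 genes nearest to the leading member in profile, genes whose exons overlap those of a member, and genes at 0. *Prkd2*, *Prkd3*, *Pdpk1*, *Phlpp1*, *Rbck1*, *Prkcz2* and the cell type markers stand outside this rule and were named after their values were seen. Promoter sequences are those of RefSeq on GRCm38.p6. Some genes that the rule names are not reported here.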

Additional observations from a re-analysis of the deposited data

How the results depend on the processing

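Each library was left out in turn, and scaling, test, filter, gene length, GC content and depth were varied. The 4 called members stayed called and higher under DESeq2, limma-voom, both filters, the GC offset, thinning and every left-out library. Tested against a 1.2-fold change (glmTreat), 1693 of all genes were called (1277 higher, 416 lower), and 0 members, 1 other PKC-family kinase, 3 diacylglycerol kinases, 2 maturation genes, 2 scaffolds, 3 substrates and 3 C1 proteins; the smallest adjusted p of a member was 0.0819 (*Prkci*). The length offset left 2 members, 1 other kinase and 4 diacylglycerol kinases called, and over all genes 2283 higher and 3706 lower; the GC offset gave 3210 and 3859, and no filter 3256 and 4381. Uncalled members changed sign: *Prkcd* to -0.0261 (no filter) and -0.0637 (length offset), *Prkch* to -0.0149 and -0.132, *Prkcz* to -0.0301 and -0.102 and, thinned, -0.12. With 1 library left out, *Prkcd* ranged from -0.0227 to 0.0631, *Prkch* from -0.0923 to 0.176 *Prkcz* from -0.0168 to 0.0685 and *Prkcq* from -0.307 to -0.00207. The cause was not tested. *Prkch* and *Prkcq* are limited by their counts.

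The replicate numbers did not pair the libraries: deviations of same-numbered libraries correlated at -0.00844, 0.0121 and -0.0077, and 1 of 6 libraries correlated best with its own number. A replicate block gave 7472 calls over all genes and the same number of called members, 4, with *Prkch* at -0.0442 and *Prkcz* at -0.00286. The replicate block with the length offset called 1 other kinase and 4 diacylglycerol kinases, and gave -0.0597 for *Prkcd*, -0.215 for *Prkch* and -0.126 for *Prkcz*.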
